A study of Mus musculus with 9 samples.

Results

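The members described are miR-103-3p and miR-107-3p, a pair of miRNAs known for their part in insulin sensitivity. They were chosen by name, as the array features called mmu-miR-103-3p and mmu-miR-107-3p, and are 2 of the 1881 mouse miRNAs on the array. Levels were measured in liver RNA of male mice of the inbred strain C57BL/6J, aged 20 weeks, on 9 one-colour Agilent arrays. The 3 control samples came from mice kept on chow for 17 weeks from the age of 3 weeks. Mice of the 3 high fat diet (HFD) samples had chow with 45% of kcal from fat for those 17 weeks and saline by gavage in the last 5. Those of the 3 metformin samples were fed the same HFD for as long and had metformin by gavage, at 3 mg per kg per day, in place of saline. The sources used here do not say whether control mice were gavaged. A sample was a pool of 4 livers of its group, so every spread and p-value below is one between pools and not between single mice. The animals were of 1 sex and 1 strain, and no group had metformin on chow.

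A miRNA guides a silencing complex to messenger RNAs, mainly through its seed, a short stretch near its 5′ end. miR-103 and miR-107 are processed from hairpins that lie within genes of pantothenate kinases, the enzymes that start the synthesis of coenzyme A, the carrier of acyl groups in lipid metabolism. Both are known to repress caveolin-1 (Cav1), the membrane protein that helps to hold insulin receptors in caveolae, and their silencing in obese mice is known to improve insulin sensitivity. The arrays read miRNAs only, and the messenger RNAs of Cav1 and the pantothenate kinases were not analysed here.

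The mature sequences are shown first because the pair differs by a single base, which bears on how far an array can tell them apart. In RefSeq (GRCm38.p6) both were 23 bases long and shared 22 of them. The sole difference was G22C, counted from 1 at the 5′ end with the base of miR-103-3p first. Capitals mark the seed, bases 2 to 8, and the differing base.
miR-103-3p: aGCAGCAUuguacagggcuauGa
miR-107-3p: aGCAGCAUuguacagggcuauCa

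The hairpins are shown because miR-103-3p is made from 2 of them and miR-107-3p from 1, so a level of miR-103-3p on the array sums both sources. The first hairpin of miR-103 lay at chr11:35782396-35782481 on the plus strand within Pank3. The second lay at chr2:131288052-131288137 on the plus strand within Pank2. That of miR-107 lay at chr19:34820687-34820773 on the minus strand within Pank1. All 3 are on the strand of their host gene, and whether an exon covers them was not analysed here. Capitals mark the mature strand. The array headers name an older build, mm9, whose coordinates were not used.
microRNA 103-1: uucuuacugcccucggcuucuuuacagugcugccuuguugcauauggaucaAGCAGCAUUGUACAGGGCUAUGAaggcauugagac
microRNA 103-2: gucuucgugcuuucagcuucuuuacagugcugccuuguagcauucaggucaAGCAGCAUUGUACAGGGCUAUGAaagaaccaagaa
microRNA 107: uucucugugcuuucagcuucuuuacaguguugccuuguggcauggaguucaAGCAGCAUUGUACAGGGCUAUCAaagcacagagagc

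Of the array's miRNAs, 1608 had a mature sequence in the RefSeq table, and no miRNA among them other than the pair carried the same bases 2 to 8. The hexamer GCAGCA, searched at base 2 or 3 of the mature strand, was held by 13 of the 1608, or 0.808%. Beside the pair these included 6 members of the miR-15 family, known as brakes on the cell cycle, in which the hexamer begins at base 3. They are printed because their levels are set beside those of the pair further on, with the hexamer in capitals.
miR-15a-5p: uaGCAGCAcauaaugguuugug
miR-15b-5p: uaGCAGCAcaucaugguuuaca
miR-16-5p: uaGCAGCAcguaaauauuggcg
miR-195a-5p: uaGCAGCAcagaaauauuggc
miR-497a-5p: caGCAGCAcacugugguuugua
miR-322-5p: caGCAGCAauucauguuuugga

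The opposite strands of the hairpins, usually the less abundant products, gave no measured level. miR-107-5p and miR-103-1-5p were detected on 0 of 9 arrays, and miR-103-2-5p was not analysed here.

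Each member was read by 2 probes with 15 spots each, which gave 60 member spots per array and 540 in all. Spots lost their signal in strips of columns at the left or right edge of 6 arrays. Strips were present on all 3 control arrays, on HFD replicates 1 and 3, and on metformin replicate 2. They took in 135 of the 540 member spots, and 42 of these 135 were well above background. Outside the strips 404 of 405 member spots were well above background. The strips were unevenly spread over the groups and held 37.2% of the members' control spots, 27.8% of their HFD spots and 10% of their metformin spots. 2 spots of the second probe of miR-107-3p went the other way, with an intensity of 29870 on control replicate 2 and 47234 on control replicate 3. Both lay in strips and carried the outlier mark of the scanner software, so they entered no mean.

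**Figure D1:**
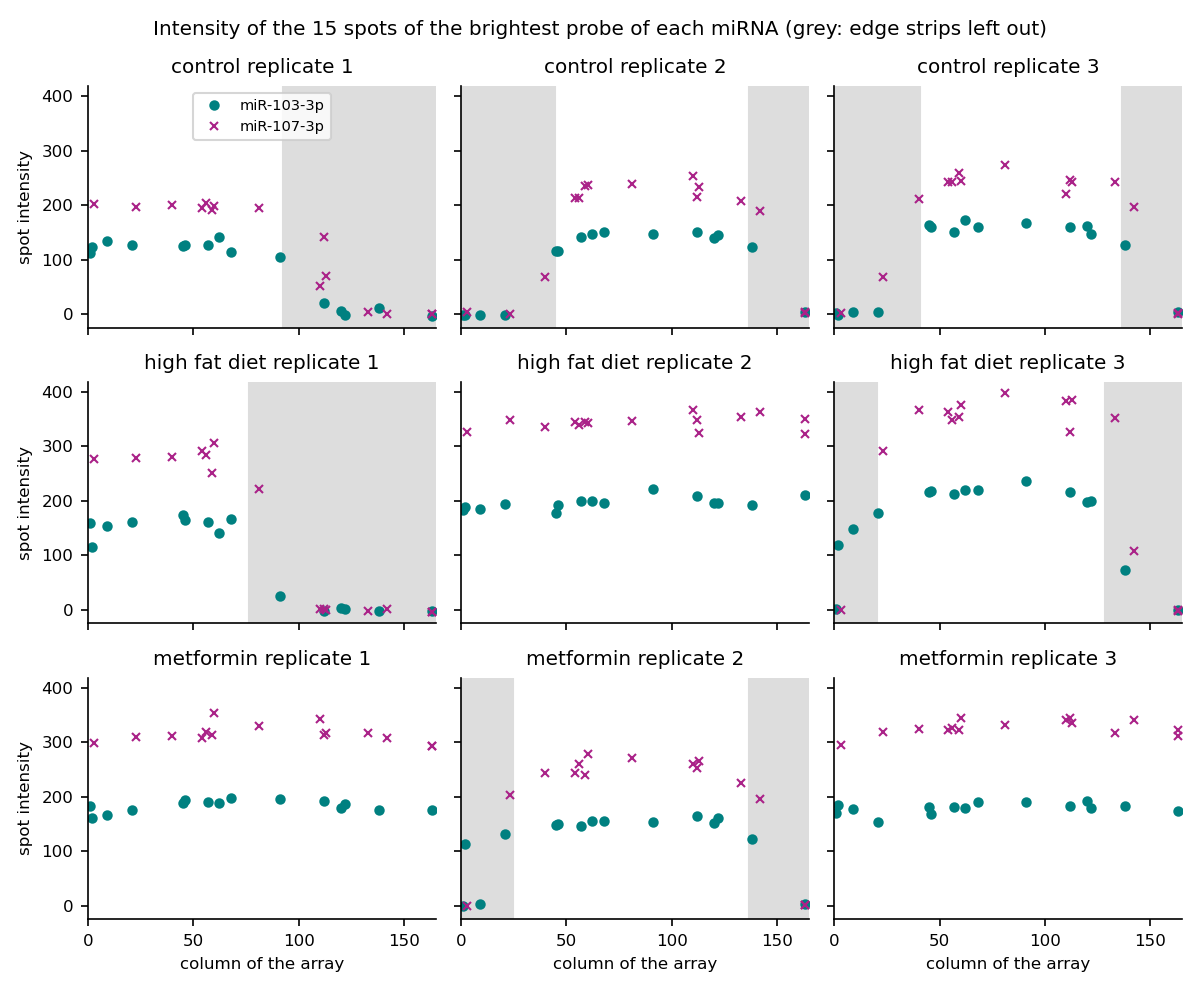
Background-subtracted spot intensity (vertical axis, linear) of the brighter probe of miR-103-3p (circles) and miR-107-3p (crosses) against the column of the array (horizontal axis, 164 columns), one panel per array. Grey marks the columns left out; inside them most spots fall to near 0, while outside them the remaining spots of a probe lie in a narrow band.

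Outside the strips the spots of one probe differed little. The coefficient of variation between spots, taken per array, had a median of 5.89% for the brighter probe of miR-103-3p and 5.81% for that of miR-107-3p. For the second, dimmer probes the medians were 12.5% and 5.74%. The levels of the pair are therefore given in 2 readings. The untrimmed reading, called all spots in the plots, took the mean of a probe's spots without outlier marks. For the brighter probes these marks also took out dark strip spots on metformin replicate 2. On control replicates 1 and 2 and HFD replicate 1 no spot of these probes was marked, so their dark strip spots stayed in the mean. The trimmed reading, plotted as strips left out, took the median of the spots outside the strips. In both, the brighter probe stood for the miRNA, and its level is the log2 of its intensity over the 75th percentile of the array's detected probes, so a level of 0 equals that percentile. No spot was saturated. The percentile lay between an intensity of 188 and 450 untrimmed and between 193 and 323 trimmed, and the scanner software detected 136 to 190 miRNAs per array. Both members were detected on all 9 arrays in both readings, so the filter on dim miRNAs, which left 139 miRNAs for testing untrimmed and 143 trimmed, did not select them through any 1 group.

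The tissue markers were those of liver. In the trimmed reading the summed level, relative to the 75th percentile, of the hepatocyte markers miR-122-5p, miR-192-5p and miR-194-5p was 103 to 116 in control, 96.8 to 108 in HFD and 106 to 119 in metformin arrays. Untrimmed, it was 86.2 to 106, 57.1 to 75.6 and 80.5 to 88.8, so that every HFD array lay below every control and every metformin array. miR-122-5p alone differed by -0.58 in untrimmed HFD minus control (adjusted p = 0.0682, limma), with no overlap, and by -0.10 trimmed. Of all 139 miRNAs tested untrimmed, 23% had no overlap in this comparison, in either direction, and their median difference was itself -0.22. The part of the hepatocyte marker differences in the untrimmed levels of the pair was not tested. Of markers of other cells, 1 of 2 endothelial, 1 of 2 erythroid, 3 of 6 leukocyte, 2 of 5 stellate and mesenchymal and 0 of 5 bile duct miRNAs could be tested. miR-126a-5p, miR-144-3p, miR-142a-5p, miR-150-5p, miR-155-5p, miR-143-3p and miR-145a-5p were detected on 0 arrays in both readings. In bulk liver, fewer cells of a type and less of a miRNA per cell cannot be told apart.

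Before scaling, trimmed intensities of miR-103-3p were 126, 144 and 160 in control replicates 1 to 3. They were 161, 196 and 216 on the HFD arrays and 187, 154 and 180 on the metformin arrays. For miR-107-3p they were 197, 232 and 243 (control), 280, 345 and 365 (HFD) and 313, 257 and 324 (metformin). For both members every HFD array was thus brighter than every control array before scaling, and the scaling percentile itself was highest on HFD replicates 2 and 3. For miR-103-3p the closest arrays were control replicate 3 at 160.3 and HFD replicate 1 at 160.8. How many other miRNAs separated before scaling was not analysed here, so this is not read as particular to the pair.

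HFD arrays were compared with control arrays to see whether the diet moved either miRNA. Neither passed the test in either reading. After trimming, miR-107-3p, though not called, had each of its HFD arrays above each of its control arrays, 1.15-fold on average, while miR-103-3p overlapped. Untrimmed, the group means of both members were level.

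The trimmed log2 level of miR-107-3p was 0.03, 0.07 and 0.11 in control replicates 1 to 3 and 0.34, 0.31 and 0.18 in HFD replicates 1 to 3. Group means were 0.07 ± 0.04 and 0.27 ± 0.09 (SD, n = 3). The lowest HFD array was above the highest control array. Its log2 difference was 0.20 with a standard error of 0.10 and a 95% interval from -0.02 to 0.42, and limma gave an adjusted p of 0.172 after Benjamini-Hochberg. Of 143 miRNAs, 20 were called in this comparison, or 14%, and 31, or 21.7%, had every HFD array above every control array. A larger absolute difference was found for 73 of the 143.

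miR-103-3p had trimmed log2 levels of -0.62, -0.61 and -0.49 (control) and -0.46, -0.51 and -0.58 (HFD). Its group means were -0.57 ± 0.07 and -0.52 ± 0.06 (SD, n = 3). HFD replicates 2 and 3 lay below control replicate 3, so the groups overlapped. The difference was 0.06 on the log2 scale with a standard error of 0.09 and a 95% interval from -0.14 to 0.26 (adjusted p = 0.691, limma with Benjamini-Hochberg), and it was -0.07 after quantile normalization.

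Untrimmed log2 levels of miR-107-3p were -0.61, -0.39 and -0.50 (control) and -0.56, -0.39 and -0.55 (HFD). Those of miR-103-3p were -1.15, -1.14 and -1.33 (control) and -1.17, -1.21 and -1.25 (HFD). For both members the groups overlapped. The log2 difference was -0.00 for both, with 95% intervals from -0.32 to 0.31 for miR-107-3p and from -0.31 to 0.30 for miR-103-3p (both adjusted p = 0.999, limma with Benjamini-Hochberg). Of 139 miRNAs 9 were called, or 6.47%, and 5, or 3.6%, had every HFD array above every control array. The median difference of all 139 was itself -0.22 here, and 0.00 after quantile normalization; relative to that median miR-107-3p stood 0.22 and miR-103-3p 0.21 higher. After trimming the median of all 143 was 0.03, and the members stood 0.17 and 0.03 above it.

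**Figure D2:**
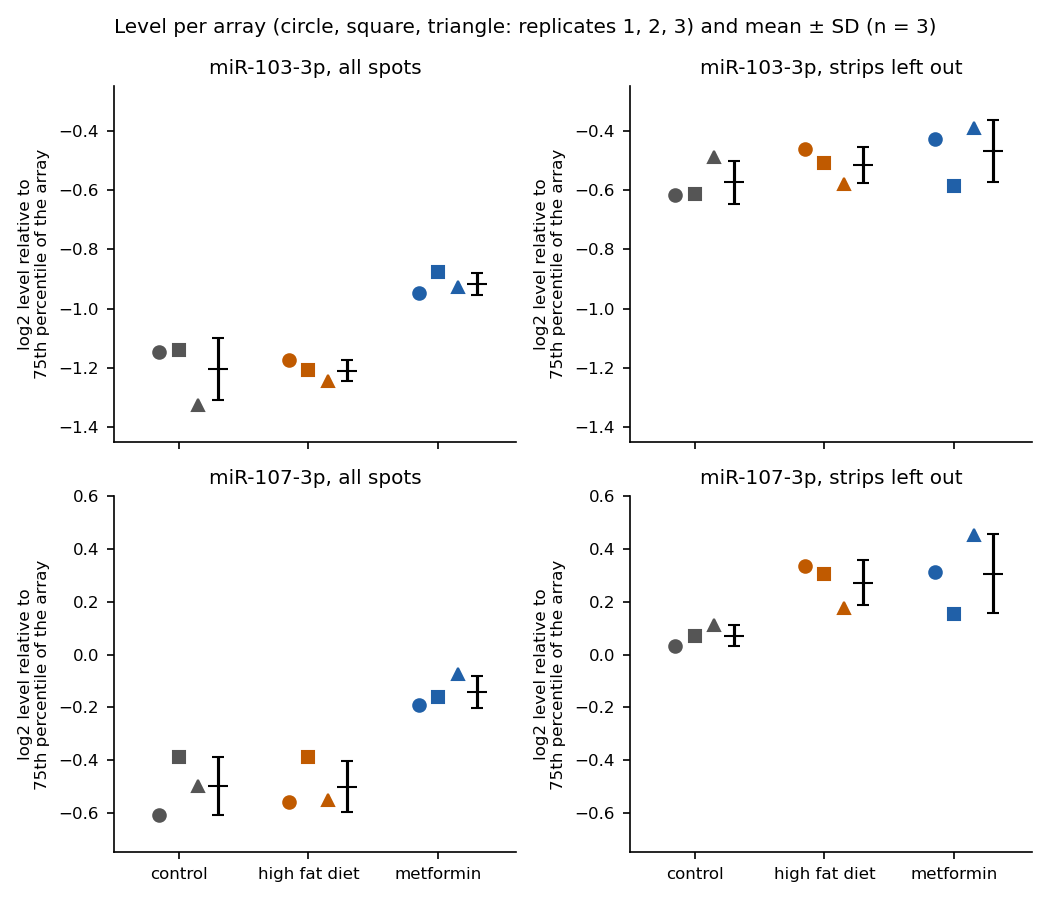
Log2 level relative to the 75th percentile of the array (vertical axis) for miR-103-3p (top) and miR-107-3p (bottom), untrimmed (left) and trimmed (right), by group; symbols are the single arrays and bars the mean ± SD of 3. Untrimmed, the metformin arrays stand above the others, and for trimmed miR-107-3p the control arrays stand below the others.

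Metformin arrays were compared with HFD arrays to see whether the drug moved the pair on the same diet. Untrimmed, both members were higher on each metformin array than on each HFD array, 1.28-fold for miR-107-3p and 1.22-fold for miR-103-3p on average, but neither passed the adjusted test. After trimming the groups overlapped for both, and the differences were near 0. The strips held 27.8% of the member spots of the HFD group and 10% of those of the metformin group. On metformin replicate 2, leaving out marked spots raised the untrimmed mean intensity from 117 to 149 for miR-103-3p and from 196 to 245 for miR-107-3p. On HFD replicate 3 it rose from 164 to 174 and from 270 to 282, and HFD replicate 1 had no marked spot of these probes. The order of the arrays with marked spots kept was not analysed here.

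Untrimmed metformin levels of miR-107-3p were -0.19, -0.16 and -0.07, against the highest HFD array at -0.39. Those of miR-103-3p were -0.95, -0.88 and -0.93, against the highest HFD array at -1.17. No array of one group reached the other group for either member. The log2 difference was 0.36 for miR-107-3p, with a standard error of 0.14, a 95% interval from 0.04 to 0.67 and an adjusted p of 0.383 (limma with Benjamini-Hochberg; unadjusted p = 0.0292). It was 0.29 for miR-103-3p, with a standard error of 0.14, a 95% interval from -0.01 to 0.60 and an adjusted p of 0.383 (limma; unadjusted p = 0.0579). limma called 0 of 139 miRNAs (0%), with 15 under an unadjusted p of 0.05, and 29, or 20.9%, had every metformin array above every HFD array. The median of all 139 differences was 0.16, so the members stood 0.20 and 0.13 above the typical miRNA. The size depended on the processing: from the median over spots to the percentile over all probes it ran from 0.046 to 0.55 for miR-107-3p and from 0.018 to 0.48 for miR-103-3p.

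Trimmed metformin levels of miR-107-3p were 0.31, 0.15 and 0.45, a range that took in all 3 HFD values. Those of miR-103-3p were -0.43, -0.59 and -0.39, which also took in all 3 HFD values. Metformin replicate 2 was the lowest of its group for both members. The log2 difference was 0.03 for miR-107-3p, with a 95% interval from -0.18 to 0.25 and an adjusted p of 0.898. It was 0.05 for miR-103-3p, with a 95% interval from -0.15 to 0.25 and an adjusted p of 0.836 (limma with Benjamini-Hochberg). The sign for miR-107-3p turned without HFD replicate 3 (-0.02) and without metformin replicate 3 (-0.04). limma called 2 of 143 miRNAs, or 1.4%, and 12, or 8.39%, had every metformin array above every HFD array.

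That interval leaves room for a change of miR-107-3p under metformin between 0.881-fold and 1.19-fold, and of miR-103-3p between 0.901-fold and 1.19-fold. It does not show that the drug left them alone.

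Metformin arrays were also compared with control arrays, which differ from them by diet and drug together. miR-107-3p was higher on every metformin array than on every control array in both readings, 1.28-fold untrimmed and 1.18-fold trimmed. miR-103-3p was so in the untrimmed reading alone, at 1.22-fold. No member was called.

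For trimmed miR-107-3p the lowest metformin array was replicate 2 at 0.15 and the highest control array was replicate 3 at 0.11. Group means were 0.31 ± 0.15 and 0.07 ± 0.04 (SD, n = 3). The gap between the groups was therefore smaller than the spread within the metformin group. The log2 difference was 0.23 with a standard error of 0.10 and a 95% interval from 0.02 to 0.45 (adjusted p = 0.189, limma with Benjamini-Hochberg; unadjusted p = 0.0363). In this comparison 2 of 143 miRNAs were called, or 1.4%, while 30 had an unadjusted p under 0.05, and 18, or 12.6%, had every metformin array above every control array. For miR-103-3p the means were -0.47 ± 0.10 and -0.57 ± 0.07 (SD, n = 3), and the log2 difference was 0.10 with a 95% interval from -0.09 to 0.30 (adjusted p = 0.514, limma).

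The untrimmed log2 difference was 0.36 for miR-107-3p, with a 95% interval from 0.04 to 0.67 and an adjusted p of 0.381. It was 0.29 for miR-103-3p, with a 95% interval from -0.02 to 0.59 and an adjusted p of 0.508 (limma with Benjamini-Hochberg). From the deposited value table to the percentile over all probes these values ran from 0.053 to 1.00 and from 0.060 to 0.93. 17 of 139 miRNAs, or 12.2%, had every metformin array above every control array, and limma called 0 (0%) with 15 under an unadjusted p of 0.05. The comparisons with the control and with the HFD group share the metformin arrays and are not independent of each other.

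In order of trimmed group mean, miR-107-3p ran from control to HFD to metformin, and the step from HFD to metformin was smaller than either group's SD. miR-103-3p had the same order, and each of its steps was smaller than the SD of either group beside it. Untrimmed, metformin was the highest group for both members, and control and HFD did not differ beyond their spread.

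**Figure D3:**
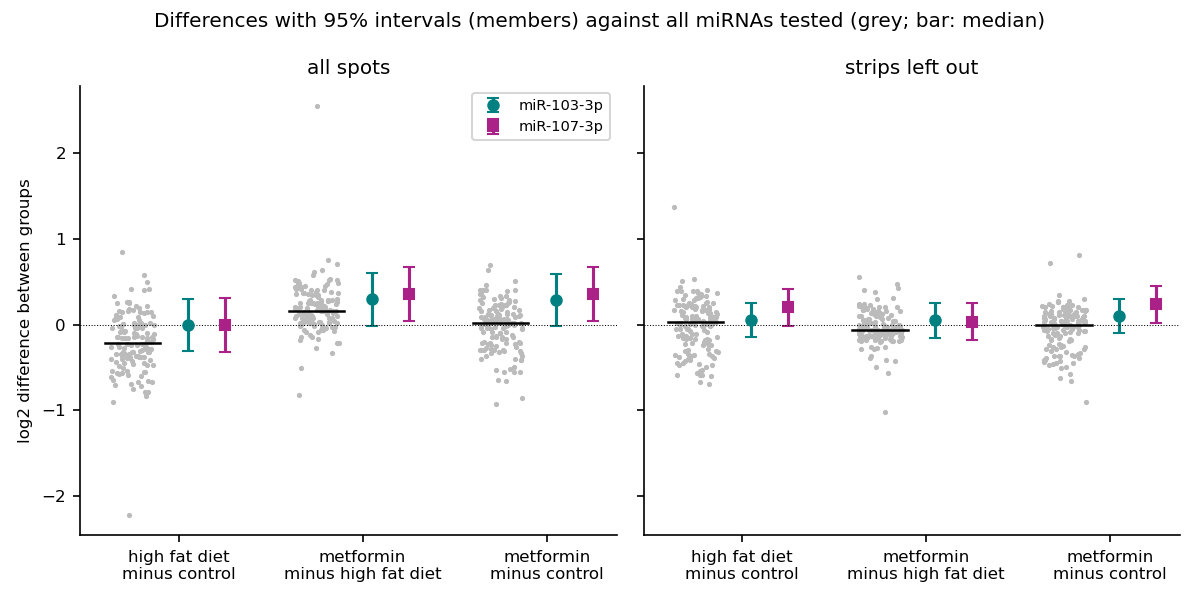
Log2 difference between groups (vertical axis) for miR-103-3p (circle) and miR-107-3p (square) with 95% intervals from limma, beside every miRNA tested (grey dots, with a bar at their median), untrimmed (left, 139 miRNAs) and trimmed (right, 143). Both members lie within the cloud of the other miRNAs in every comparison, and the cloud's median is -0.22 for HFD minus control untrimmed.

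The position of arrays on the slides was not balanced either. 8 arrays shared a slide of 2 rows and control replicate 3 was alone on another. Row 1 held the 3 HFD arrays and metformin replicate 1, and row 2 held metformin replicates 2 and 3 and control replicates 1 and 2. No row of that slide held both HFD and control arrays, so row and diet cannot be told apart there except through the metformin arrays. Within row 2, trimmed metformin minus control was 0.25 for miR-107-3p and 0.13 for miR-103-3p, from 2 arrays against 2. Within row 1, trimmed metformin minus HFD was 0.04 and 0.09, from 1 array against 3. Over all arrays, trimmed metformin minus control was 0.23 for miR-107-3p and 0.10 for miR-103-3p, and trimmed metformin minus HFD was 0.03 and 0.05. No within-row value compares HFD with control. Untrimmed, the within-row values were 0.38 and 0.24 within row 2 and 0.31 and 0.26 within row 1.

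Because the pair shares 22 of 23 bases and each array holds both, the log2 ratio of miR-107-3p to miR-103-3p within an array was compared between groups, which cancels the scaling. The level of the ratio itself depends on the probes and is not read. The trimmed ratio was 0.65, 0.69 and 0.60 (control), 0.80, 0.82 and 0.76 (HFD) and 0.74, 0.74 and 0.85 (metformin). All 6 arrays of mice on the HFD, with or without the drug, were above all 3 control arrays. HFD minus control was 0.14 on the log2 scale (exact two-sided permutation test, p = 0.1, the smallest that 3 against 3 arrays can give). Metformin minus control was 0.13 (exact permutation p = 0.1), and metformin minus HFD was -0.01 (exact permutation p = 0.8). The 3 p-values are not adjusted for one another, and the design cannot reach 0.05. Among single miRNAs after trimming, 21.7% had every HFD array above every control array, and 12.6% had every metformin array above every control array. How often the ratio of other pairs of miRNAs separates was not analysed here. No row of the shared slide held both HFD and control arrays.

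With the second, dimmer probes HFD was again above control, while metformin overlapped control. Their trimmed ratio was 1.91, 1.89 and 1.89 (control), 2.15, 1.97 and 1.93 (HFD) and 2.03, 1.89 and 2.14 (metformin). Each HFD array was above each control array, with a log2 difference of 0.12 (exact permutation p = 0.1). Metformin replicate 2 lay below control replicate 1. The probes share arrays and RNA, so they are not replicates of the diet.

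Untrimmed, the ratio of the brighter probes overlapped between all groups, at 0.54, 0.75 and 0.83 (control), 0.61, 0.82 and 0.69 (HFD) and 0.76, 0.72 and 0.85 (metformin). HFD minus control was 0.00 (exact permutation p = 1), and with the second probes it was -0.14. The separation of the ratio was therefore seen in the trimmed reading and not in the untrimmed one. Whether a probe made for one of the pair also binds the other was not tested.

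**Figure D4:**
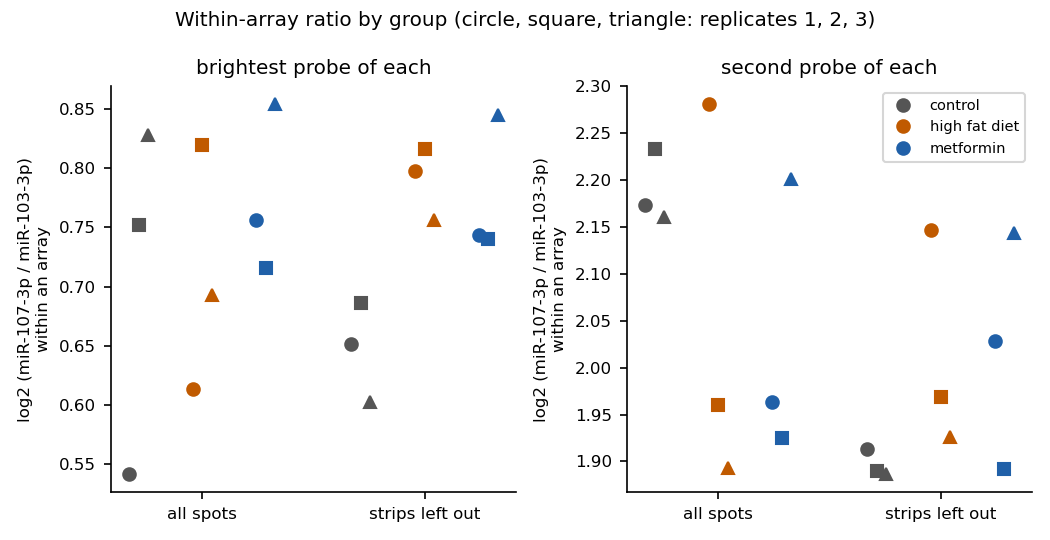
Log2 ratio of miR-107-3p to miR-103-3p within each array (vertical axis) by reading, with the brighter probes (left) and the second probes (right); colours are groups and symbols replicates. After trimming the 3 control arrays lie at 0.60 to 0.69 in the left panel, below all 6 arrays of mice on the HFD, and untrimmed the groups overlap.

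The second probe of each miRNA also served as a check on its level. For miR-107-3p the 2 probes followed each other over the 9 arrays with r = 0.99 trimmed and 0.66 untrimmed. For miR-103-3p, whose second probe was dimmer, r was 0.71 and 0.60. These are descriptions over arrays that share RNA and scaling. In the trimmed reading the second probe of miR-107-3p gave HFD minus control as 0.22 and metformin minus HFD as 0.03, beside 0.20 and 0.03 with the brighter probe. That of miR-103-3p gave 0.10 and 0.02, beside 0.06 and 0.05. The trimmed second probes had every HFD array above every control array for both members. For miR-103-3p this rested on a highest control level of -2.703 and a lowest HFD level of -2.691. How many second probes of all miRNAs separated in this way was not analysed here. Untrimmed, the second probes gave HFD minus control as -0.30 for miR-107-3p and -0.16 for miR-103-3p, where the brighter probes gave -0.00, and the second probe of miR-103-3p was not detected on HFD replicate 1.

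The pair moved together over the arrays, with r = 0.87 trimmed and 0.85 untrimmed over 9 arrays. Of the other 116 miRNAs detected on all 9 arrays after trimming, the one most like both members was let-7a-5p, a member of the let-7 family that is known to restrain insulin signalling genes. Its r was 0.88 with miR-103-3p and 0.89 with miR-107-3p. Untrimmed, the same r was -0.02 and -0.11. For miR-103-3p the next were miR-365-3p at 0.84 (0.50 untrimmed) and miR-30c-5p at 0.81, which was not detected on every array untrimmed. For miR-107-3p they were miR-151-5p at 0.86 (0.69) and miR-152-3p at 0.86 (0.46). The levels share each array's scaling, and the likeness was ranked without a test.

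The 6 miR-15 family relatives printed above were all tested, and 0 of 6 were called in any comparison in either reading. They were listed by name, and the list left out miR-195b, miR-1906, miR-6342, miR-6353 and miR-6419, which also hold the hexamer. Trimmed HFD minus control was positive for 6 of 6, with a median of 0.21 and a range from 0.01 to 0.39, beside a median of 0.03 over all 143 miRNAs. 4 of the 6 had every HFD array above every control array, where 21.7% of all miRNAs did. miR-15b-5p was at -1.37, -1.04 and -0.94 (control) and -0.63, -0.77 and -0.87 (HFD), a log2 difference of 0.36 (adjusted p = 0.104, limma). miR-322-5p, the rodent form of miR-424, was at -3.41, -3.14 and -3.01 (control) and -2.90, -2.68 and -2.82 (HFD), a log2 difference of 0.39 (adjusted p = 0.0974, limma with Benjamini-Hochberg). The other 2 that separated were miR-195a-5p at 0.20 and miR-497a-5p at 0.22, both close to the 0.20 of miR-107-3p. miR-15a-5p and miR-16-5p were at 0.01 and 0.03, close to the 0.06 of miR-103-3p.

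In the untrimmed reading 3 of the 6 relatives were positive for HFD minus control, with a median of -0.04 beside -0.22 over all 139 miRNAs, and none separated. Metformin minus HFD was positive for 0 of 6 trimmed, with a median of -0.08 beside -0.06 over all miRNAs, and for 4 of 6 untrimmed, with a median of 0.08 beside 0.16. Metformin minus control was positive for 4 of 6 in both readings, with medians of 0.16 trimmed and 0.11 untrimmed, beside -0.004 and 0.02 over all miRNAs. miR-497a-5p, at 0.20 trimmed and 0.32 untrimmed, and miR-195a-5p, at 0.17 and 0.22, had every metformin array above every control array in both readings, as did 12.6% of all miRNAs trimmed and 12.2% untrimmed. miR-15a-5p went the other way untrimmed, at -0.29 (adjusted p = 0.554, limma), with every metformin array below every control array. Of all 139 miRNAs, 21.6% had no overlap in this comparison, in either direction.

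**Figure D5:**
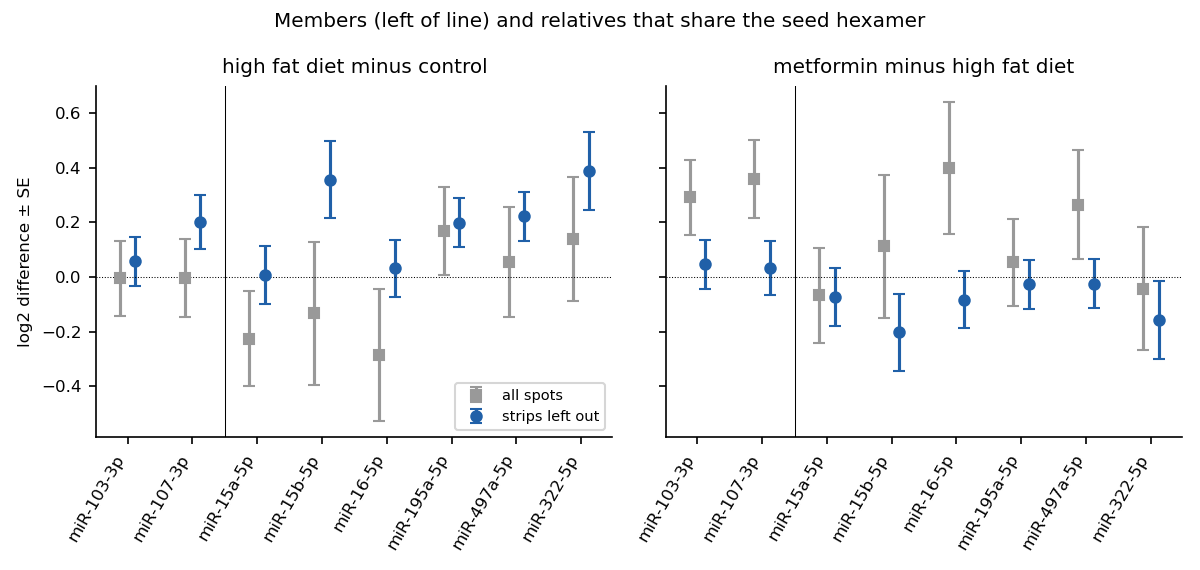
Log2 difference ± standard error (vertical axis) of the pair and the 6 relatives for HFD minus control (left) and metformin minus HFD (right), untrimmed (grey squares) and trimmed (blue circles). After trimming every relative is above 0 on the left and below 0 on the right, at 0.01 to 0.39 and at -0.20 to -0.02.

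Among 22 miRNAs listed as known regulators of insulin action or glucose, 15 could be tested untrimmed and 16 trimmed. 3 of the 22 are also among the relatives. In HFD minus control 1 rose and 0 fell in both readings. The one that rose was miR-34a-5p, which is induced by p53 and known to rise in fatty liver. After trimming it was at -1.84, -1.91 and -2.02 (control), -0.27, -0.48 and -0.91 (HFD) and -1.08, -1.10 and -1.17 (metformin), 3 ranges that did not overlap. Its log2 difference was 1.37 trimmed (adjusted p = 0.000265) and 0.84 untrimmed (adjusted p = 0.0464, limma with Benjamini-Hochberg), beside 0.20 and -0.00 for miR-107-3p. The trimmed call was lost with the slide row as a block (1.27, adjusted p = 0.0764, limma), and the untrimmed call under 17 of 22 alternatives, which included leaving out any array but control replicate 2. Positive differences were found for 14 of 16 regulators trimmed, with a median of 0.21 beside 0.03 over all miRNAs, and for 7 of 15 untrimmed, with a median of -0.09 beside -0.22. Over all miRNAs 14% were called trimmed and 6.47% untrimmed. Trimmed, 37.1% of all miRNAs had no overlap, in either direction, between HFD and control. The share was 20.3% between metformin and HFD and 25.9% between metformin and control. How many miRNAs had 3 separate ranges was not analysed here.

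In metformin minus HFD 0 of the tested regulators were called in either reading, where 1.4% of all miRNAs were called trimmed and 0% untrimmed. Trimmed differences were positive for 3 of 16, with a median of -0.12 beside -0.06 over all miRNAs, and the 2 named were miR-34a-5p at -0.56 (adjusted p = 0.126, limma) and miR-29b-3p at -0.26 (adjusted p = 0.435, limma). That of miR-34a-5p was called under 1 of 15 alternatives, a run without 1 array (adjusted p = 0.00657, limma). miR-103-3p was at 0.05 and miR-107-3p at 0.03, each smaller than its standard error (0.09 and 0.10). Untrimmed, 12 of 15 were positive, with a median of 0.16, the same as over all 139 miRNAs. In metformin minus control miR-34a-5p was higher by 0.80 trimmed (adjusted p = 0.0143, limma), the sole regulator called, and 0 were called untrimmed. This call was lost with the slide row as a block (0.74, adjusted p = 0.0548), after quantile normalization (0.86, adjusted p = 0.063) and without any 1 of the 3 metformin arrays (limma; adjusted p from 0.0702 to 0.0985).

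Markers of other liver cells were read beside the pair, first in the trimmed data. The endothelial miR-126a-3p had a level, relative to the 75th percentile, of 2.62 to 2.93 in control, 3.13 to 3.19 in HFD and 2.69 to 3.28 in metformin arrays. The summed level of the 2 stellate and mesenchymal markers tested was 0.246 to 0.258, 0.299 to 0.319 and 0.274 to 0.288 in the same order. One of these, miR-199a-3p, rose by 0.31 in HFD minus control (adjusted p = 0.0301, limma with Benjamini-Hochberg). That call was lost with the slide row as a block (0.26, adjusted p = 0.349), with the second probes (0.32, adjusted p = 0.0752) and without any 1 of the 3 HFD arrays (limma; adjusted p from 0.057 to 0.0866). The endothelial and the stellate levels were thus higher on every HFD array than on every control array, as for miR-107-3p and 21.7% of all miRNAs. The erythroid miR-451a was at 0.337 to 0.915, 0.504 to 0.695 and 0.260 to 0.303, and the summed level of the 3 leukocyte markers tested was 0.308 to 0.392, 0.332 to 0.399 and 0.304 to 0.332.

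Untrimmed, the endothelial and stellate levels of HFD and control arrays overlapped. miR-126a-3p was at 1.40 to 3.10 in control, 0.905 to 2.38 in HFD and 1.91 to 2.26 in metformin arrays, and HFD minus control was -0.42 (adjusted p = 0.518, limma). The stellate sum was 0.122 to 0.191, 0.186 to 0.224 and 0.161 to 0.201, and miR-199a-3p did not pass the test (0.57, adjusted p = 0.158, limma). miR-451a was at 0.248 to 0.698, 0.301 to 0.434 and 0.196 to 0.219, lowest on the metformin arrays as in the trimmed reading. It was not called: metformin minus HFD was -1.01 trimmed (adjusted p = 0.158) and -0.82 untrimmed (adjusted p = 0.383, limma). In that comparison 20.3% of all miRNAs trimmed and 22.3% untrimmed had no overlap, in either direction. The untrimmed leukocyte sum was 0.217 to 0.301, 0.192 to 0.254 and 0.217 to 0.228. The part of these cells in the levels of the pair was not tested.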

How the data were processed

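The authors deposited, per the file headers, background-subtracted spot intensity without scaling between arrays (software Agilent Feature Extraction 11.5.1.1 in the headers, 10.7 in the submitters' processing notes). They also deposited log2 values. These equalled log2 total signal per miRNA after adding a constant, -2.35 to -0.71, to each array (0 to 6 exceptions an array at a tolerance of 0.001). Their column medians were -5.67 to -4.03, and how the constants were set is not stated in the sources.

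A probe was detected on an array if the share of its spots well above background exceeded 0.5. The scaling percentile used the probes detected on every array (124 untrimmed, 187 trimmed). Scaled values had a floor at the 1st percentile of detected values (0.0272 and 0.0406). Edge columns were trimmed in steps of 4 while 10% or more of bright spots had no signal; bright means a probe whose 80th spot percentile was over 100, and no signal means under 50% of it. Trimming, chosen after the strips had been seen, dropped 425 probes with fewer than 3 spots. miRNAs detected throughout at least 1 group entered limma 3.58.1 (R 4.3.3; data read with data.table, version 1.17.8), with 3 group means, a shared spread, two-sided tests and Benjamini-Hochberg adjustment over all of them at 0.05. The fit was tested on simulated data with shifts larger than the differences of the pair in either reading, and without strips or slide rows. It does not speak to differences as small as those of the pair. Array number limits the precision; the median standard error was 0.20 untrimmed and 0.12 trimmed.

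Pairing by replicate number was checked by correlating deviations from group means. Untrimmed, every same-numbered pair was over 0.1 for HFD and control (0.51, 0.43, 0.23) and for metformin and control (0.41, 0.20, 0.21). This is a possible pairing that the labels do not state. Pairs of unlike number were not compared, so it is not shown to follow the replicate number. The normexp alternative used median spot signals in place of the planned mean signals. Named miRNAs were the pair, its hairpin partners, the 3 most like each member, and from each list those called or else the 2 with the largest trimmed difference; the other relatives were named after their values had been seen. The members, the lists of relatives, insulin regulators and cell markers, and the tests were chosen with earlier results of these data known.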

Additional observations from a re-analysis of the deposited data

How the results depend on the processing

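No member passed the adjusted threshold under any alternative in either reading. Untrimmed HFD minus control, at -0.00 for both members, changed sign most often. For miR-103-3p it was 0.054 with the median over spots, 0.45 with the percentile over all probes, 0.020 from the deposited table, 0.12 with detection over unmarked spots (added after seeing the data), 0.12 after quantile normalization and 0.057 trimmed. For miR-107-3p it was 0.051 with the median over spots, 0.45 with the percentile over all probes, 0.12 with detection over unmarked spots, 0.21 after quantile normalization, 0.20 trimmed, 0.0036 with normexp and 0.071 with the slide row as a block. Trimmed, quantile normalization gave -0.068 for miR-103-3p. The second probes gave the change of the untrimmed ratio as -0.14 for HFD minus control, -0.015 for metformin minus HFD and -0.16 for metformin minus control, and that of the trimmed ratio as 0.0076 for metformin minus HFD. The cause was not tested.

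Without 1 array at a time, untrimmed HFD minus control ran from -0.065 to 0.15 for miR-103-3p, from -0.059 to 0.18 for miR-107-3p and from -0.081 to 0.062 for the ratio. The untrimmed ratio ran from 0.019 to 0.12 for metformin minus HFD and from -0.014 to 0.13 for metformin minus control. Trimmed metformin minus HFD ran from -0.040 to 0.11 for miR-107-3p and from -0.049 to 0.0041 for the ratio, while trimmed HFD minus control ran from 0.17 to 0.27 for miR-107-3p and from 0.12 to 0.16 for the ratio. For miR-107-3p and miR-103-3p, untrimmed metformin minus HFD ran from 0.19 to 0.41 and from 0.12 to 0.31, untrimmed metformin minus control from 0.23 to 0.39 and from 0.23 to 0.32, and trimmed metformin minus control from 0.16 to 0.36 and from 0.066 to 0.22. Untrimmed metformin minus HFD of miR-34a-5p, negative otherwise, was 0.20 with the median over spots and 0.10 with the second probes.

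The 9 miRNAs called in untrimmed HFD minus control became 0 with the median over spots, normexp, the deposited table, detection over unmarked spots, the slide block or the row block, 1 with the percentile over all probes, 2 after quantile normalization, 4 with the second probes and 0 to 3 without 1 array. The 0 in untrimmed metformin minus HFD became 1 with the percentile over all probes, and the 0 in untrimmed metformin minus control became 0 to 2 without 1 array. Trimmed, the 20 calls for HFD minus control became 8 with the second probes, 39 with the slide block, 0 with the row block and 6 to 40 without 1 array (6 without HFD replicate 1, 40 without control replicate 3). The 2 calls in metformin minus HFD became 0 with the second probes, quantile normalization or the row block, 1 with the slide block and 0 to 3 without 1 array. The 2 in metformin minus control became 5, 7 and 5 with the second probes, the slide block and the row block, and 1 to 8 without 1 array.

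After trimming the same-numbered pairs were not all over 0.1 in any comparison. The replicate block moved the trimmed calls in metformin minus HFD from 2 to 0, in HFD minus control from 20 to 22 and in metformin minus control from 2 to 3, and the untrimmed 9 for HFD minus control to 7. It changed no call of the pair; miR-107-3p in trimmed HFD minus control had an adjusted p of 0.188 with it (limma; 0.0902 to 0.518 over all alternatives).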
